A study of Homo sapiens with 5 samples.

Results

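The baseline transcriptome of TF-1 cells was read from the 2 control libraries of a series of 5 libraries. TF-1 is a human erythroleukemia cell line that needs GM-CSF to grow and serves as a model of AML. Both libraries came from TF-1 cells that carried a lentiviral vector (pLenti-Cas9-GFP) with Cas9, GFP, and sgCtrl, an sgRNA directed against the renilla luciferase gene of the sea pansy. Each library was made from 1 pool of 4 single-cell clones (TF-1_sgCtrl_1 and TF-1_sgCtrl_2, called pool 1 and pool 2 here) that had been grown together overnight before RNA extraction. The series was made to compare such controls with cells that lack *MTSS1*, and its other 3 libraries were not used. The authors left a further sgCtrl pool out as an outlier, and it was not analysed here. Cells that never received the vector were not part of the comparison either, so that the values describe clones of transduced TF-1 cells and not the parental line.

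TF-1 cells stand near the branch point of erythroid, megakaryocytic, and myeloid differentiation. The factors *GATA1*, *TAL1*, *LMO2*, *LDB1*, and *KLF1* act together on the globin, heme, and red cell membrane genes, whereas *GATA2*, *RUNX1*, and the ETS factors *SPI1*, *ERG*, and *FLI1* act in progenitors and in the other myeloid lineages. GM-CSF, IL-3, and IL-5 signal through specific alpha chains that share the beta chain *CSF2RB*, and from there through *JAK2* and STAT5.

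Pool 1 had a total of 2849979 counts over 22089 genes and pool 2 of 3408827 counts over 22375 genes. Levels are given as CPM, the counts of a gene per 1000000 counts of its library, scaled by factors of 1.11 and 0.898 that TMM normalisation gave for these libraries. The 3′ libraries are primed at the poly(A) tail, so that 1 mRNA gives about 1 tag whatever its length, and levels of different genes were set side by side without a correction for length. This holds for RNAs with a poly(A) tail, and whether the RNA of each gene had one was not measured. A gene with 3 counts, the floor below which a gene was taken as not detected, had 0.946 CPM in pool 1 and 0.980 CPM in pool 2. At least 1 CPM was found in both pools for 13845 genes, at least 10 CPM for 7662, and at least 100 CPM for 1403.

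With 1 library per pool, no test of a difference between the pools was possible, and no p-value is given. A difference is given as the ratio of scaled counts with its exact 95% interval, which covers counting error only and not the spread between clones, cultures, or library preparations. A gene was called higher in a pool when its whole interval lay past 2-fold. Among 12111 genes with at least 20 counts in the pools together, 1.96% were called higher in pool 1 and 7.64% higher in pool 2, and the counts within gene groups are to be read against these shares. The split depended on scaling: with library totals alone, all ratios moved by 0.31 on the log2 scale toward pool 1, and 553 genes were higher in pool 1 and 591 in pool 2, in place of 237 and 925.

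Some genes that dividing cells are known to need had very few tags. Other listed genes, such as *ALDOA* and *EEF1G*, were absent from the deposited counts, so that no level can be given for them. Of the listed genes for ribosomal proteins, translation, glycolysis, chaperones, the cytoskeleton, proliferation, and iron handling, 14 were below 5 CPM in both pools, among them *TYMS* (0.946 and 0.653 CPM), *CDK4* (1.26 and 0.653 CPM), *MCM2* (0.946 and 0.653 CPM), and *FTH1*, the ferritin heavy chain (0 counts in pool 1 and 2 in pool 2), besides tissue-restricted genes such as *TF* and *RPL10L*. *GAPDH* lay just above, with 5.04 and 3.59 CPM. In 9 of these 14 (64.3%) the final 300 bases of the transcript overlapped an exon of another gene, against 39 of the other 222 (17.6%). Over all protein coding genes in the table, the median sum of counts was 78 for 12784 genes without such an overlap. It was 46 for 1598 with an overlap on the opposite strand only and 14 for 433 with one on the same strand only. The share of genes below 1 CPM in both pools was 18.13%, 19.96%, and 31.87% in these groups, in that order. It thus differed little between genes without an overlap and those with one on the opposite strand only. Named pseudogenes were fewer among the 14 (42.9%) than among the rest (66.2%), and *GAPDH* has 65. This comparison was chosen after the values had been seen, and the part of the overlaps in the low counts was not tested.

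All 5 genes used as markers of these cells were detected in both pools, and none was called different between them. *GATA2*, the progenitor GATA factor, was the most abundant of them with 339.8 CPM in pool 1 and 214 CPM in pool 2, a mean of 277 ± 89.3 CPM (SD, n = 2), and ranked 363 in pool 1 and 869 in pool 2 among all genes. *CD34*, the surface marker of hematopoietic stem and progenitor cells, had 133 CPM in pool 1 and 123 CPM in pool 2, with a mean of 128 ± 7.03 CPM (SD, n = 2). *GATA1*, the main erythroid and megakaryocytic GATA factor, followed with 111 CPM in pool 1 and 88.5 CPM in pool 2, with a mean of 99.7 ± 15.9 CPM (SD, n = 2). The order was the same in both pools, with *KIT*, the receptor of stem cell factor, at 45.1 and 45.7 CPM and *CSF2RB* at 19.2 and 15.3 CPM. The ratio of pool 1 to pool 2 was 0.986 (95% interval 0.776 to 1.25) for *KIT*, 1.08 (95% interval 0.938 to 1.25) for *CD34*, and 1.25 (95% interval 0.843 to 1.87) for *CSF2RB*, and these intervals include 1. For *GATA2* it was 1.59 (95% interval 1.44 to 1.76) and for *GATA1* 1.25 (95% interval 1.07 to 1.47), and both intervals lie above 1 but within 2-fold. *GATA2* was above *GATA1* in both pools. By position on GRCh38, *GATA2* lies at chr3:128479427-128493201, *CD34* at chr1:207880972-207911402, *GATA1* at chrX:48786540-48794311, *KIT* at chr4:54657267-54740783, and *CSF2RB* at chr22:36913628-36940439.

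**Figure D1:**
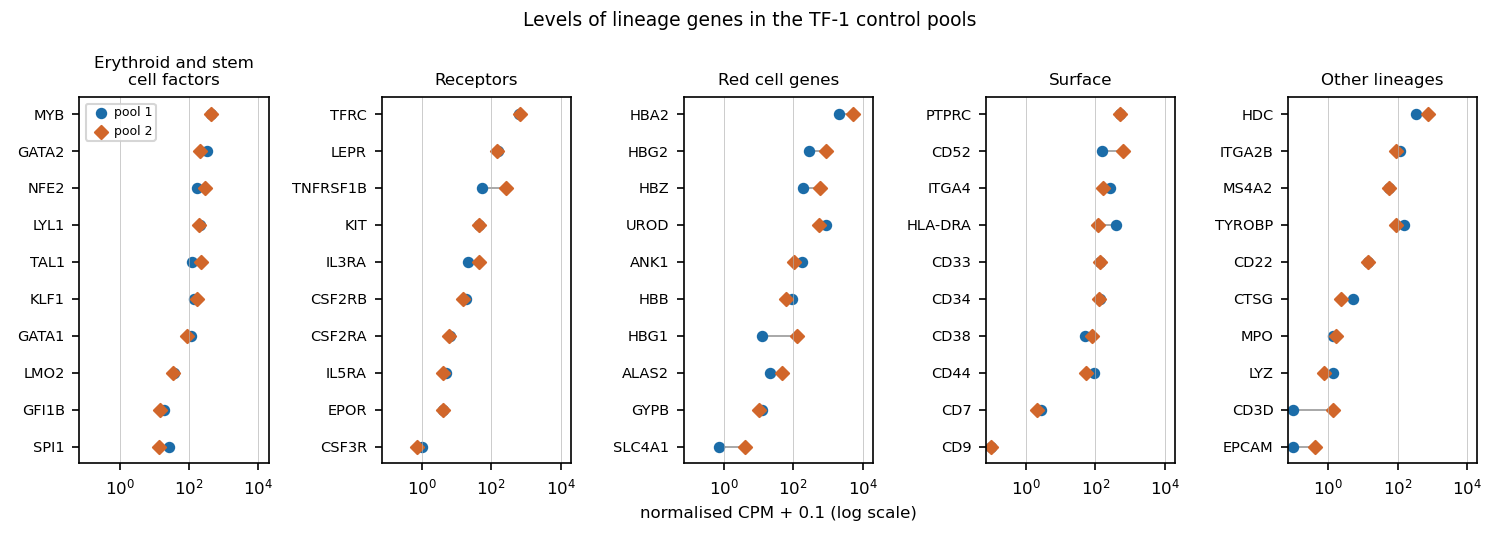
Levels of lineage genes in the control pools, grouped by role. The horizontal axis is normalised CPM + 0.1 on a log scale, circles are pool 1, diamonds are pool 2, and a grey line joins the pools of a gene. Factors such as *MYB*, *GATA2*, and *KLF1* lie well above the granule genes *MPO* and *LYZ*, and the symbols of *MYB*, *KIT*, and *CD33* nearly coincide, whereas those of *HBG1*, *CD52*, and *TNFRSF1B* lie far apart.

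Nearly all erythroid transcription factors were expressed in both pools. Of 18 listed factors, 17 had at least 10 CPM in both pools and 7 at least 100 CPM, and 0 of the 17 compared were called in either direction. *MYB*, which keeps erythroid progenitors cycling, was highest with 438 CPM in pool 1 and 441 CPM in pool 2. *LYL1*, a bHLH factor related to *TAL1*, had 201 and 191 CPM, the CACCC-box factor *KLF1* 139 and 164 CPM, and *NFE2*, the p45 subunit of NF-E2, 173 and 291 CPM. *TAL1* had 125 CPM in pool 1 and 215 CPM in pool 2, 1.72-fold higher in pool 2 (95% interval 1.52 to 1.96). Its partners were lower, with *LMO2* at 37.2 and 35.3 CPM and *LDB1* at 37.2 and 48.3 CPM. The repressors of fetal globin *BCL11A* and *ZBTB7A* had 45.4 and 35.6 CPM and 111 and 193 CPM, respectively. *CBFA2T3*, a corepressor bound by the *TAL1* complex, had 87.3 and 63 CPM. The exception was *SOX6*, a further repressor of fetal globin, with 0 counts in pool 1 and 2 counts in pool 2, both under the floor.

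GATA factors bind A/TGATAA words. Their presence was looked up in the reference promoters of the erythroid factors, the globins, and the 5 marker genes, without any measurement of binding in these cells. Promoters were taken from RefSeq (GRCh38.p14) as 250 bases before to 50 bases after a gene's start, and AGATAA and TGATAA were searched on both strands. Of 27305 promoters, 4537 (16.6%) held at least 1 match. Of the 31 listed genes, 20 had a promoter in the reference, and 5 of these (25%) held a match: *TAL1*, *LYL1*, *KLF1*, *BACH1*, and *HBD*. The windows of *KLF1*, *TAL1*, *LYL1*, and *HBD* are shown in the direction of the gene, and those of *BACH1* are left out. Capitals mark the match, which in all of them reads on the opposite strand.
KLF1: ttgctttgccTTATCAgaggctgcag
TAL1: cggcagtgccTTATCTctgcggcgca
LYL1: gccaggctccTTATCAggcgcggcca
LYL1: agcctggcccTTATCTgcactgggcc
HBD: gaaaccctgcTTATCTtaaaccaacc
They lie on the minus strand at chr19:12887252-12887277 (*KLF1*), chr1:47232355-47232380 (*TAL1*), chr19:13102870-13102895 and chr19:13102841-13102866 (*LYL1*), and chr11:5234546-5234571 (*HBD*). *KLF1*, *TAL1*, and *LYL1* were each above 100 CPM in both pools, and *HBD* had 62.4 and 30 CPM. *MYB*, *GATA2*, and *NFE2*, which are not among the 5 genes with a match, were also above 100 CPM in both pools. A link between the words and these levels was not tested.

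Among 33 measured factors of myeloid and stem cells, 20 had at least 10 CPM in both pools, and 4 were below 1 CPM in both. *ETV6*, an ETS repressor, led with 179.7 CPM in pool 1 and 307 CPM in pool 2. *RUNX1* had 69 and 50.3 CPM and its partner *CBFB* 115 and 69.2 CPM. The ETS factors *ERG* (77.6 and 32.3 CPM) and *FLI1* (77.2 and 45.7 CPM) were above *SPI1*, the PU.1 factor of macrophages and granulocytes, with 27.1 and 13.4 CPM. *RUNX1T1*, a corepressor of the same family as *CBFA2T3*, had 109 and 48.6 CPM. *MYC* reached 91.1 and 67.6 CPM. Stem cell factors of the HOX group were low or uneven: *HOXA10* had 26.8 and 43.4 CPM, *MEIS1* 1.89 and 6.86 CPM, and *HOXA9* 1 count in pool 1 and 0 in pool 2. The C/*EBP* factors measured lay between 2.52 CPM for *CEBPE* and 44.8 CPM for *CEBPG* in pool 1. Of 27 factors compared, 0 were higher in pool 1 and 2 in pool 2, *STAT5A* and *STAT3*.

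The receptors for the cytokines TF-1 cells are known to respond to were present at low tag counts. *CSF2RA*, the GM-CSF receptor alpha chain, had 6.62 CPM in pool 1 and 5.88 CPM in pool 2. *IL3RA*, the IL-3 receptor alpha chain, was the most abundant alpha chain with 21.8 and 43.4 CPM, 2.0-fold higher in pool 2 (95% interval 1.48 to 2.71), and thus not past 2-fold over its whole interval. *IL5RA* had 5.04 and 3.92 CPM, and *EPOR*, the erythropoietin receptor, 4.1 and 3.92 CPM. The shared chain *CSF2RB* was above *CSF2RA*, *IL5RA*, and *EPOR* in both pools. Together the 5 receptors had 56.7 and 72.5 CPM, and 0 of 5 were called.

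Of 40 other cytokine and growth factor receptors measured, 16 had at least 10 CPM in both pools. The leptin receptor *LEPR* was highest with 161 CPM in pool 1 and 152 CPM in pool 2. *TNFRSF1B*, a TNF receptor, had 54.5 CPM in pool 1 and 273 CPM in pool 2, 5.0-fold higher in pool 2 (95% interval 4.24 to 5.93). *IL10RA* was another receptor higher in pool 2 (4.1 and 16.3 CPM). *LIFR*, the receptor of leukemia inhibitory factor, went the other way with 30 counts in pool 1 and 2 in pool 2, and was 14.5-fold higher in pool 1 (95% interval 3.67 to 125). The receptors of granulocytes and macrophages were near the floor, with *CSF3R* at 0.946 and 0.653 CPM and *CSF1R* at 0.315 and 0.653 CPM.

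Downstream of these receptors, 24 of 32 JAK, STAT, and feedback genes had at least 10 CPM in both pools. *JAK1* (258 and 204 CPM) was the most abundant of the kinases, and *JAK2*, the kinase bound to *CSF2RB*, had 49.5 and 63.7 CPM. *STAT5A* had 126 CPM in pool 1 and 358 CPM in pool 2 and was 2.84-fold higher in pool 2 (95% interval 2.53 to 3.19), whereas *STAT5B*, its close relative, had 79.4 and 125 CPM and was not called. *STAT3* was 2.41-fold higher in pool 2 (95% interval 2.1 to 2.77). *BCL2L1*, which codes for the survival factor BCL-XL and is a target of STAT5, had 75.3 CPM in pool 1 and 328 CPM in pool 2 and was 4.35-fold higher in pool 2 (95% interval 3.77 to 5.03). Other targets of cytokine signalling were not called, with *PIM1* at 47.6 and 28.7 CPM, *CISH* at 23.3 and 30 CPM, *SOCS2* at 32.5 and 41.8 CPM, and *MCL1* at 52 and 55.2 CPM. *SOCS3* (6 counts and 0) and *SOCS1* (3 counts and 0) were at or under the floor in pool 2. In all, 0 of 28 genes compared were higher in pool 1 and 3 in pool 2.

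Globin genes were expressed, mostly of the alpha, zeta, and gamma type. *HBA2* had 2043 CPM in pool 1 and 5347 CPM in pool 2 and *HBA1* 1371 CPM in pool 1 and 879.9 CPM in pool 2. *HBG2* had 288 CPM in pool 1 and 898 CPM in pool 2 and *HBZ*, the embryonic alpha-like chain, 197 CPM in pool 1 and 605 CPM in pool 2. The adult beta chain *HBB* was low, with 90.5 CPM in pool 1 and 62 CPM in pool 2, and the delta chain *HBD* lower still. The gamma chains *HBG2* and *HBG1* together exceeded *HBB* and *HBD* in both pools. *HBM* was listed at 0 in both. *HBG1* stood out, with 40 counts in pool 1 and 402 in pool 2, 10.4-fold higher in pool 2 (95% interval 7.51 to 14.8). *HBA1* and *HBA2*, and likewise *HBG1* and *HBG2*, are near-identical copies, and reads that matched both were removed, so that the split within each pair is uncertain. The final bases of *HBA1* and *HBA2* also overlap an exon on the opposite strand. Of 8 globins compared, 4 (*HBA2*, *HBG2*, *HBZ*, and *HBG1*) were higher in pool 2 and 0 in pool 1, and the median log2 ratio of pool 1 to pool 2 was -1.22. The sum of the globins was 4126 CPM in pool 1 and 8079 CPM in pool 2. In such bulk libraries, fewer cells with globin RNA and less of it per cell cannot be told apart.

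Every gene of heme synthesis and haemoglobin assembly was above 1 CPM in both pools, and 18 of 20 were above 10 CPM. *UROD*, the uroporphyrinogen decarboxylase, was the most abundant of the enzymes with 862 CPM in pool 1 and 540.0 CPM in pool 2. *ALAS2*, the erythroid form of the first enzyme, had 21.1 and 47 CPM, and *ALAS1*, the form of other cells, 41.9 and 37.5 CPM. *FECH*, which inserts the iron, had 37.2 and 52.2 CPM. The alpha-globin chaperone *AHSP* was at 17.3 and 18.9 CPM. Of the 9 enzymes, 0 were called. All 4 called genes were higher in pool 2 and belong to transport and heme breakdown. *BLVRB*, a biliverdin reductase, had 127 CPM in pool 1 and 808 CPM in pool 2, 6.34-fold higher in pool 2 (95% interval 5.71 to 7.06). *HMOX1*, the inducible heme oxygenase, had 7.88 CPM in pool 1 and 67.3 CPM in pool 2, 8.53-fold higher in pool 2 (95% interval 5.62 to 13.5). The mitochondrial iron carrier *SLC25A37* had 198 and 570.1 CPM, and the other biliverdin reductase *BLVRA* 77.6 and 212 CPM. The list's median log2 ratio was -0.25 and changed sign with library totals alone.

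Of the iron genes, *FTL* and *TFRC* were close in the pools. *FTL*, the ferritin light chain, had 1154 CPM in pool 1 and 1129.7 CPM in pool 2, and *TFRC*, the transferrin receptor, 616 CPM in pool 1 and 699 CPM in pool 2. The ferroportin gene *SLC40A1* had 116 and 70.5 CPM. *TFR2*, a relative of *TFRC*, was the only 1 of 10 called, with 35 CPM in pool 1 and 177 CPM in pool 2, 5.07-fold higher in pool 2 (95% interval 4.12 to 6.27). *FTH1* and *PCBP1* had at most 2 counts in a pool, and their final bases overlap exons of *BEST1* and *PCBP1-AS1* on the opposite strand.

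Of 30 genes of the red cell membrane and surface, 23 had at least 10 CPM in both pools. *SPTBN1*, a beta spectrin of many cell types, was highest (485 and 357 CPM), whereas the red cell beta spectrin *SPTB* had 2.21 and 5.88 CPM. The glycophorin gene *GYPC* had 269.5 CPM in pool 1 and 562 CPM in pool 2, and *GYPB* 12.6 and 10.4 CPM. The ankyrin *ANK1* (179 and 108 CPM) and the band 4.1 gene *EPB41* (269 and 261 CPM) were well expressed. *SLC4A1*, the anion exchanger of mature red cells, had only 2 counts in pool 1 and 12 in pool 2. Higher in pool 2 were 3 of 28: *CD36* with 13.2 and 68.6 CPM, the adducin *ADD2* with 22.1 and 87.2 CPM, and dematin (*DMTN*) with 0.946 and 11.4 CPM, while 0 were higher in pool 1.

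Most surface markers of blood progenitors were close in the pools. *PTPRC*, which codes for CD45, had 505 CPM in pool 1 and 516 CPM in pool 2, with a ratio of 0.98 (95% interval 0.913 to 1.05). The myeloid antigen *CD33* had 139 CPM in pool 1 and 134 CPM in pool 2, almost the same in both pools. *CD38* was at 49.5 and 80.6 CPM, and *ITGA4*, the alpha chain of VLA-4, at 263 and 161 CPM. *CD24* had 128 and 63 CPM, and *ANPEP*, which codes for CD13, 36.9 and 24.5 CPM. Pool 2 was higher for *CD52* with 155 CPM in pool 1 and 614 CPM in pool 2, 3.95-fold higher in pool 2 (95% interval 3.57 to 4.37), and for the tetraspanin *CD82* with 149 CPM in pool 1 and 566 CPM in pool 2. Pool 1 was higher for *HLA-DRA* with 396 CPM in pool 1 and 119.8 CPM in pool 2, 3.3-fold higher in pool 1 (95% interval 2.94 to 3.72). *CD9*, *CD96*, and *HAVCR2* were under the floor in both pools.

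Genes that define mature cells of other lineages were mostly near the floor. Of 17 neutrophil and monocyte genes measured, 1 had at least 10 CPM in both pools and 7 were below 1 CPM in both. The myeloperoxidase gene *MPO* had 1.26 and 1.63 CPM, the lysozyme gene *LYZ* 1.26 and 0.653 CPM, and *CD14* 0 counts in pool 1 and 1 in pool 2. The exceptions were the adaptor genes *TYROBP* (152 and 92.1 CPM) and *FCER1G* (27.7 and 5.88 CPM), and *FCER1G* was 4.72-fold higher in pool 1 (95% interval 2.82 to 8.33). Summed over this list, pool 1 had 210.0 CPM and pool 2 121 CPM.

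Megakaryocyte genes were represented by *ITGA2B*, the integrin of platelets, with 121 CPM in pool 1 and 91.1 CPM in pool 2, and by the collagen receptor *GP6* with 70.6 and 34.6 CPM. *GP9* and *VWF* were at 3.78 and 2.61 CPM and 1.26 and 0 CPM. Of 16 genes, 6 had at least 10 CPM in both pools, and *NRGN* was called, with 89.8 CPM in pool 1 and 382 CPM in pool 2. Of 16 mast cell, basophil, and eosinophil genes measured, 5 had at least 10 CPM in both pools. The 5 included *HDC*, the histidine decarboxylase, with 334 CPM in pool 1 and 763 CPM in pool 2, 2.28-fold higher in pool 2 (95% interval 2.12 to 2.45). *MS4A2*, the beta chain of the IgE receptor, had 57.4 CPM in pool 1 and 58.1 CPM in pool 2. The granule proteases of mast cells were near 0, with *TPSAB1* at 1.58 and 2.61 CPM and *TPSB2* at 1.26 and 0.327 CPM, although *CPA3* had 10.4 and 2.94 CPM.

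Lymphoid and non-blood genes were low. For T and NK cells, 2 of 16 genes had at least 10 CPM in both pools, *CD4* at 32.8 and 13.1 CPM and *NCR1* at 11.3 and 14.7 CPM, and *CD3D*, *CD3G*, *CD2*, and *CD8A* were each at 4 counts or fewer. For B cells, 1 of 7 genes did so, *CD22* at 14.2 and 14 CPM, and *PAX5* had 1 count in each pool. Of 11 stromal, endothelial, and epithelial genes, 8 were below 1 CPM in both pools, and *PECAM1* (145 and 127 CPM), *KRT18* (53.9 and 120.5 CPM), and *KRT8* (12.3 and 27.8 CPM) were expressed. Of these markers, *PECAM1* is known also from platelets and leukocytes, and *CD4* from monocytes. *MTSS1* itself, an actin-binding adaptor, had 206 CPM in pool 1 and 96.3 CPM in pool 2 in these control pools, a ratio of 2.14 (95% interval 1.86 to 2.46).

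The 30 genes most abundant by the mean share of both pools took 20.1% of the counts in each pool. Ranked within each pool, the 100 most abundant took 29.9% of pool 1 and 32.0% of pool 2. The counts were spread wider in pool 1, in which the 538 most abundant genes made up 50% of them, against 427 genes in pool 2. Of the top 30 of each pool's own ranking, 18 genes were shared, and of the top 100, 64. The shares are of unscaled library totals, unlike the scaled ratios used for calls. The mitochondrial 16S ribosomal RNA *MT-RNR2* had 5.7% of the counts of pool 1 (95% interval 5.67 to 5.72) and 2.76% of those of pool 2 (2.74 to 2.77). Its scaled ratio of pool 1 to pool 2 was 1.67 (95% interval 1.65 to 1.68), and it was not called. *MT-CO3*, a subunit of cytochrome oxidase, had 2.67% of the counts of pool 1 (95% interval 2.65 to 2.68) and 2.8% of those of pool 2 (2.78 to 2.82). Mitochondrially encoded genes together took 13.9% of pool 1 and 8.63% of pool 2.

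Several nuclear genes differed more than these. *RPL27A*, a ribosomal protein gene at chr11:8682788-8714759 on GRCh38, had 0.22% of the counts of pool 1 (95% interval 0.215 to 0.226) and 2.34% of those of pool 2 (2.32 to 2.36) and ranked 32 in pool 1 and 3 in pool 2. *HDAC7*, a class IIa histone deacetylase at chr12:47782722-47833132, had 0.0274% in pool 1 and 0.577% in pool 2 and ranked 557 in pool 1 and 10 in pool 2. The dyskerin gene *DKC1* had 0.453% in pool 1 and 1.14% in pool 2, and the prothymosin gene *PTMA* 0.196% in pool 1 and 0.877% in pool 2. Other abundant genes were close, as *PABPC1*, the poly(A)-binding protein (0.648% in pool 1 and 0.526% in pool 2), the cold shock protein gene *YBX1* (0.553% in pool 1 and 0.508% in pool 2), the histone gene *H4C3* (0.578% in pool 1 and 0.45% in pool 2), and *RPLP1* (0.277% in pool 1 and 0.301% in pool 2). *HSP90AB1* (0.45% in pool 1 and 0.713% in pool 2), *MALAT1*, a nuclear lncRNA (0.48% in pool 1 and 0.63% in pool 2), and *EEF2* (0.219% in pool 1 and 0.318% in pool 2) were also in the list, as was *RNU4ATAC*, a small nuclear RNA (0.454% in pool 1 and 0.206% in pool 2). The tags of *H4C3* and *RNU4ATAC* cover only RNA copied by poly(A) priming, and need not follow their total RNA. *HBA2*, at 0.227% in pool 1 and 0.48% in pool 2, was the only globin in it, and *TOP2A*, the topoisomerase of dividing cells, had 0.215% in pool 1 and 0.444% in pool 2.

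**Figure D2:**
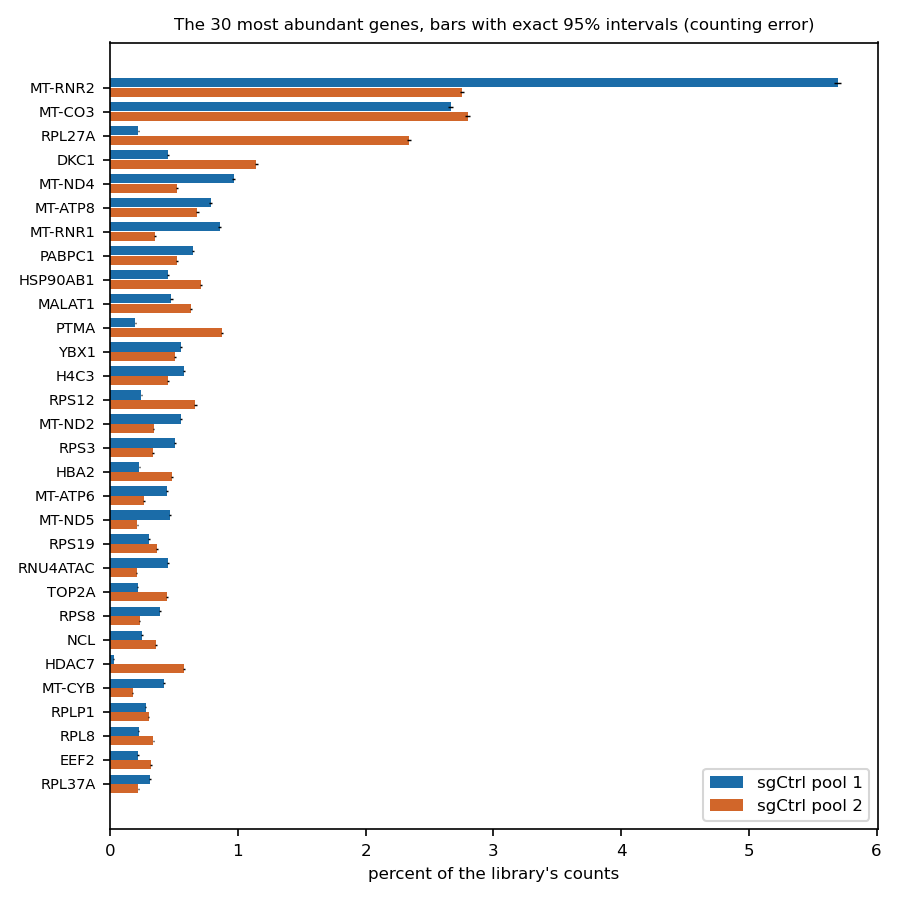
Percent of each library's counts in the 30 genes most abundant by the mean of both pools, in that order, with exact 95% intervals (counting error only). *MT-RNR2* and *MT-CO3* lead, and the bars of *RPL27A*, *PTMA*, *RPS12*, and *HDAC7* are far longer for pool 2 (orange) than for pool 1 (blue).

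The remaining lists describe a dividing cell. Of 39 proliferation genes, 34 had at least 10 CPM in both pools, with *TOP2A* at 1932 and 4947 CPM, *MKI67* at 1217 and 1013 CPM, and the replication helicase gene *MCM3* at 487 and 487 CPM. *CDKN2A*, the p16 and ARF gene, was higher in pool 1 (126 and 38.5 CPM), and *TOP2A* and *CCND3* (221 and 524 CPM) were among those higher in pool 2. Of 22 listed glycolysis genes, 21 were measured, and *ALDOA* was absent from the counts. Among these 21, *ENO1* (1762 and 943 CPM) and *GPI* (870.1 and 920.1 CPM) led. Of 19 compared, 1 was called, *PFKL*, higher in pool 2 (154 and 373 CPM). Of 13 hypoxia targets compared, 0 were called, with *VEGFA* at 50.1 and 27.8 CPM. Immediate early genes were low, with *EGR1* at 1.89 and 2.94 CPM and *JUN* at 16.4 and 16.3 CPM, apart from *JUND* (448 and 337 CPM), and 1 of 12, *FOSL2*, was higher in pool 2.

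Of 31 interferon-stimulated genes, 6 had at least 10 CPM in both pools, led by *IFITM3* (373 and 172 CPM) and *BST2* (118 and 169 CPM), whereas *MX1* and *OAS1* had 0 counts in pool 1 and 2 and 4 in pool 2. Of the 16 compared, 0 were called. In the integrated stress response, 11 of 23 genes had at least 10 CPM in both pools and 17 at least 1 CPM, and 1 of 15 compared was called, *ATF4* with 338 CPM in pool 1 and 1218 CPM in pool 2, 3.6-fold higher in pool 2 (95% interval 3.37 to 3.86). In cholesterol synthesis, 4 of 21 were higher in pool 2, *NSDHL*, *SREBF2*, *MVD*, and *MVK*, and *SQLE* was the most abundant (234 and 257 CPM). Of 26 heat shock chaperones, 2 were higher in pool 1, *HSPE1* (54.5 and 10.4 CPM) and *HSPA1A* (21.8 and 6.53 CPM), and 1 in pool 2, *DNAJB1* (50.4 and 209.9 CPM). Of 19 translation factors, 1 was higher in pool 1, *EIF4G2* (538 and 217 CPM). Of 14 nucleolar and snoRNA host RNAs, *SNHG5* was higher in pool 1 (1682 and 786 CPM) and *SNHG1* in pool 2 (198 and 523 CPM).

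Differences between the pools exceeded counting error across the table. The intervals of 6429 of the 12111 genes (53.1%) excluded a ratio of 1, and the robust SD of the log2 ratio was 0.86. Among genes of 30 to 100 CPM that SD was 0.71, against 0.17 from counting alone, and among 89 genes of at least 1000 CPM it was 1.28, against 0.029. The common biological coefficient of variation that edgeR gave for these pools was 42.2%. Across genes, levels correlated with Pearson's r of 0.89 on log2(CPM + 1) and Spearman's rho of 0.88, which is a description, as genes of the same libraries are not independent replicates. Genes higher in pool 2 were more frequent at high levels, where the intervals are also narrowest, with 31.5% of the 89 most abundant higher in pool 2. The 925 genes higher in pool 2 took 8.08% of the counts of pool 1 and 25.8% of those of pool 2, and the 237 higher in pool 1 took 3.09% and 0.930%.

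**Figure D3:**
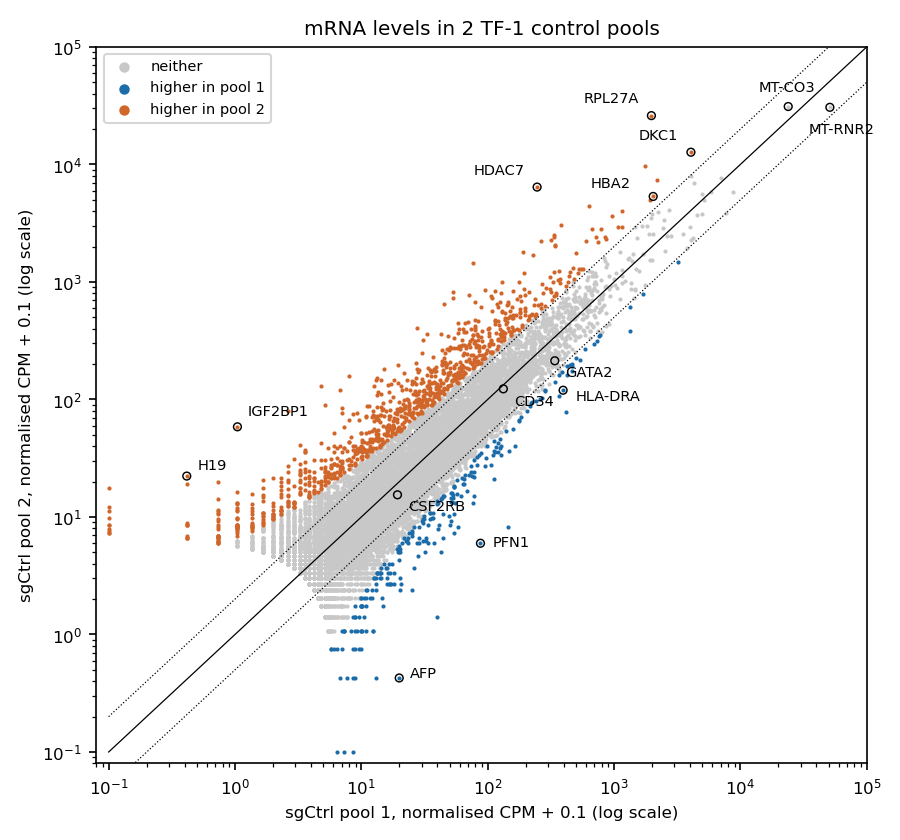
Level of each compared gene in pool 1 (horizontal) and pool 2 (vertical), as normalised CPM + 0.1 on log scales, without Y-linked genes and XIST. The solid line marks equal levels and the dotted lines 2-fold, and orange and blue points are genes called higher in pool 2 and in pool 1. *CD34*, *GATA2*, and *CSF2RB* lie between the dotted lines, and *RPL27A*, *HDAC7*, *IGF2BP1*, *H19*, *AFP*, and *PFN1* far outside.

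The 15 genes with the largest ratio toward pool 1, at a mean of at least 10 CPM, were mixed. *AFP*, the alpha-fetoprotein gene at chr4:73431138-73456174, had 63 counts in pool 1 and 1 in pool 2, and the ratio was 60.8 (95% interval 10.5 to 2440.2). *LINC01029* had 125 counts in pool 1 and 4 in pool 2. *PFN1*, profilin, an actin-binding protein, had 87.6 CPM in pool 1 and 5.88 CPM in pool 2, 14.9-fold higher in pool 1 (95% interval 9.26 to 25.5). The proteasome subunit *PSMB3* had 25.2 and 2.29 CPM, the ATP synthase subunit *ATP5MK* 42.6 and 4.9 CPM, the histone variant *H2AX* 18 and 2.61 CPM, and *NOP10*, a partner of dyskerin, 20.2 and 2.94 CPM. Also in the list were *MYDGF* (31.8 and 4.9 CPM), *KLHDC3* (44.5 and 6.53 CPM), and the mitochondrial tRNA *MT-TG* (58.3 and 8.16 CPM). The others were the processed pseudogenes *RPL30P7*, *RPS15AP17*, and ENSG00000234985, *RNU6-1180P*, annotated as a small nuclear RNA, and the unnamed gene ENSG00000279865. The final bases of *ATP5MK* overlap an exon of *TAF5* on the opposite strand.

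Toward pool 2 the ratios were larger. *H19*, an imprinted lncRNA of fetal tissues at chr11:1995166-2004552, had 1 count in pool 1 and 68 in pool 2, and the ratio of pool 2 to pool 1 was 70.4 (95% interval 12.2 to 2822). *IGF2BP1*, an RNA-binding protein of fetal tissues at chr17:48997385-49056145, had 3 counts in pool 1 and 179 in pool 2, and the ratio was 61.8 (20.8 to 302). *HDAC7* had 246 CPM in pool 1 and 6425 CPM in pool 2, 26.1-fold higher in pool 2 (95% interval 24.3 to 28.1), and its final bases overlap an exon of *SLC48A1* on the opposite strand. *RELB*, an NF-κB subunit, had 5.04 CPM in pool 1 and 89.8 CPM in pool 2, 17.8-fold higher in pool 2 (95% interval 10.8 to 31.6). *PRKAG1*, a subunit of AMPK, had 53 CPM in pool 1 and 817 CPM in pool 2, and its final bases overlap an exon of ENSG00000288710 on the same strand. *PES1*, a ribosome assembly factor, had 52.6 CPM in pool 1 and 728 CPM in pool 2. *MED24*, a Mediator subunit, had 44.8 and 653 CPM, the vesicle transport genes *VPS18* and *TRAPPC6A* 2.52 and 80.3 CPM and 27.7 and 406 CPM, and *RPL27A* 1978 and 26049.6 CPM. The others were *C19orf47*, *PRR7*, *C17orf99*, ENSG00000277602, and the processed pseudogene ENSG00000218426, with between 18.1-fold (*C17orf99*) and 31.1-fold (ENSG00000277602) higher levels in pool 2.

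Several gene groups leaned to one pool. Class II MHC proteins present antigen. Of 11 genes listed for them, 6 were higher in pool 1 and 1, the regulator *CIITA*, in pool 2. *CD74*, the invariant chain, had 469 CPM in pool 1 and 173 CPM in pool 2, 2.71-fold higher in pool 1 (95% interval 2.45 to 3.0), and *HLA-DPA1* 164 CPM in pool 1 and 39.8 CPM in pool 2, 4.12-fold higher in pool 1 (95% interval 3.38 to 5.06). *HLA-DRB1* (504 and 228 CPM), *HLA-DPB1* (62.4 and 21.2 CPM), *HLA-DMA* (36.6 and 10.8 CPM), and *HLA-DRA* were on the same side. *CIITA*, the transactivator of these genes, lay on the other side with 74.1 CPM in pool 1 and 238 CPM in pool 2, 3.22-fold higher in pool 2 (95% interval 2.77 to 3.74). Of the class I genes, *B2M* had 305 and 386 CPM and *HLA-E* 185 and 184 CPM, and *TAPBP* was called, higher in pool 2 (138 and 549.5 CPM). HLA genes are variable and resemble each other, and reads that mapped to several places were removed, so that levels of single HLA genes are uncertain. The median log2 ratio of all 18 MHC genes compared was 1.01, beside -0.0100 for all genes compared. The medians of MHC, globin, histone, and mitochondrially encoded genes kept their signs under every scaling tried. Beside the class II genes, B cell genes summed to 50.1 CPM in pool 1 and 48 CPM in pool 2. Neutrophil and monocyte genes summed to 210.0 and 121 CPM, of which *TYROBP* held 152 and 92.1 CPM. The 6 neutrophil and monocyte genes compared had a median log2 ratio of 1.23, and 1, *FCER1G*, was called higher in pool 1. *CD14* and *PAX5* were under the floor. The transduced cells had been sorted for GFP and the clones raised from single cells. A part of other cell types in the class II levels was not tested.

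Mitochondrially encoded genes had a median log2 ratio of 0.74, with 7 of 25 higher in pool 1, among them *MT-CO2* (1341 and 379 CPM) and *MT-ND3* (3213 and 1472 CPM), and 1 higher in pool 2, the tRNA gene *MT-TL1* (482 and 1070.0 CPM). Histone genes had a median of 0.58, and 6 of 36 were higher in pool 1, including *H1-4* (226 and 95 CPM) and *H2AC14* (77.2 and 15 CPM), and 0 in pool 2. Poly(A) tails of these RNAs were not measured, so that their tags need not follow the total histone mRNA. Ribosomal protein genes were called in both directions, beside shares of 1.96% (pool 1) and 7.64% (pool 2) over all genes compared. Higher in pool 1 were 7 of 84, such as *RPL6* (765 and 350.3 CPM) and *RPL19* (728 and 316 CPM). Higher in pool 2 were 8, such as *RPS4X* (959.6 and 3647 CPM) and *RPS27L* (380.2 and 3065 CPM). Their median log2 ratio was 0.25, with 52 ratios above 1 and 32 below. Of 29 cytoskeleton genes, 4 were higher in pool 1: vimentin (*VIM*, 1341 and 607 CPM), the thymosin genes *TMSB10* (239 and 96.3 CPM) and *TMSB4X* (28.4 and 5.88 CPM), and *PFN1*. Higher in pool 2 were 3, the beta actin gene *ACTB* (725 and 2398 CPM), *TUBB6*, and *TPM1*.

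**Figure D4:**
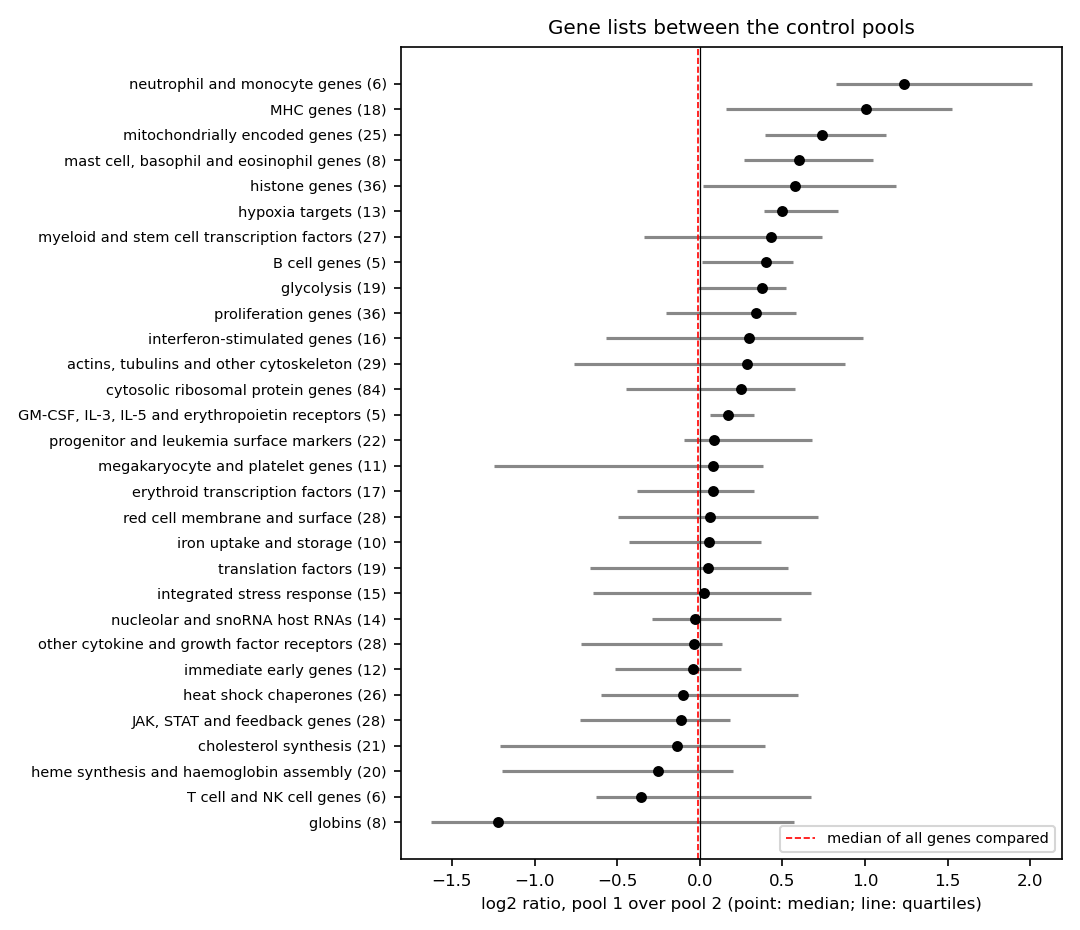
Median log2 ratio of pool 1 over pool 2 for the gene lists (points), with quartiles (lines) and, in brackets, the number of genes compared. The dashed line is the median of all genes compared. Neutrophil and monocyte genes (6 compared) and MHC genes lie farthest to the right, globins farthest to the left, and most lists include 0 within their quartiles.

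The called genes also differed in what their transcripts are made of. Median GC content was 56.5% for protein coding genes higher in pool 2, 49.7% for those higher in pool 1, and 47.3% for all 9993 compared. In the 20% of genes with the lowest GC content, 1.95% were higher in pool 2 and 0.900% in pool 1, and in the 20% with the highest GC content 16.3% and 1.70%. The median log2 ratio moved from 0.21 to -0.31 between these groups, and Spearman's rho of log2 ratio and GC content across genes was -0.23. Among the 20% of genes with the shortest transcripts, 11.3% were higher in pool 2 and 3.85% in pool 1, against 4.25% and 0.550% of the 20% with the longest, with a rho of only 0.015. Among the autosomes and the X chromosome, median log2 ratios lay between -0.24 on chromosome 16 and 0.19 on chromosome 4, and the 25 mitochondrially encoded genes compared had a median of 0.74. Pseudogenes made up 25.3% of the genes higher in pool 1, 6.59% of those higher in pool 2, and 8.08% of all compared. The part of GC content in any difference named above was not tested.

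**Figure D5:**
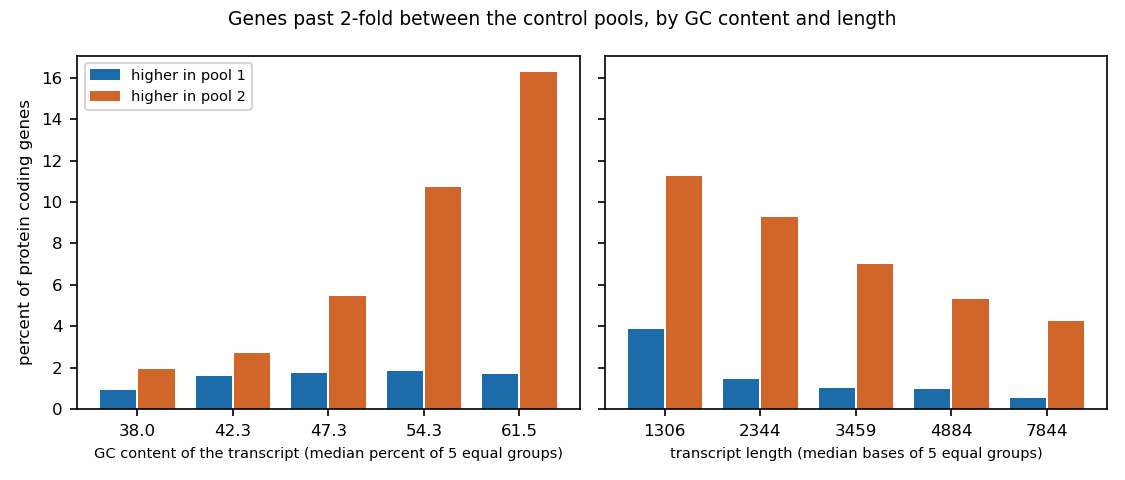
Percent of protein coding genes called higher in pool 1 (blue) and pool 2 (orange), in groups of 20% of the genes by GC content (left) and transcript length (right), with the median of each group on the horizontal axis. The share higher in pool 2 is 1.95% in the lowest and 16.3% in the highest group of GC content, and the share higher in pool 1 is 0.900% and 1.70%.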

How the data were processed

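RNA-seq counts were analysed for the 2 sgCtrl libraries of TF-1 cells. The libraries were made from total RNA with a QuantSeq 3′ FWD kit. Reads were trimmed, aligned to GRCh38 with HISAT2 2.1.0, and filtered for unique mapping with SAMtools 1.10 by the authors, who deposited whole-number counts per Ensembl gene without normalization. The counting program, annotation release, use of strand, and treatment of PCR duplicates are not given in the sources used here. Removing reads that map to several places lowers the counts of genes with near-identical copies, and counting without strand cannot tell a gene from its antisense partner. The count columns of the other 3 libraries were not used.

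Symbols, positions, and transcript properties come from GENCODE release 44, in which 27211 of 27328 genes have a symbol. TMM factors were computed on the 2 control libraries in R 4.3.3 with edgeR 4.0.16. Genes with at least 20 counts in the pools together were compared by the ratio of scaled counts with an exact conditional binomial 95% interval. The interval was tested on simulated counts without any spread beyond counting error. Its coverage there does not carry over to the spread between pools. Shares of counts have exact Clopper-Pearson intervals. All intervals and the floor of 3 counts cover counting error only, since no molecular identifiers are named and PCR can give several reads of 1 molecule. Each pool is 1 library, so that the spread between pools has no replicate check. Ratios and intervals came from scipy 1.17.1, tables from pandas 2.3.3, and plots from matplotlib 3.10.9, under Python 3.11.15. DESeq2 1.42.0 gave size factors as an alternative scaling.

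Named genes are members of the gene lists, the 30 most abundant genes, and the 15 called genes with the largest ratio in each direction at a mean of at least 10 CPM. Y-linked genes and XIST were left out. CEBPA was not analysed here, and some other genes of the lists are not reported here by name. The members, lists, and rules were chosen with earlier results of these data known, and the comparison of 3′ end overlaps and the GATA word search were added after seeing the data.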

Additional observations from a re-analysis of the deposited data

How the results depend on the processing

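With only 2 pools, leaving out either leaves no difference to form, and the value of the remaining pool is given where there is one. No paired analysis was possible because the results use 1 group and come from no test. The counts of 237 genes higher in pool 1 and 925 higher in pool 2 became 553 and 591 with library totals alone, 1237 and 1997 when only the ratio had to pass 2-fold, 19 and 180 at 4-fold, and 757 and 1686 at 1.5-fold. Genes higher in pool 1 numbered 144 with a 99% interval, and 136 without pseudogenes and genes that have named pseudogenes, an alternative chosen after seeing the data. The cause of the last change was not tested. DESeq2 size factors, upper-quartile factors, TMM without mitochondrially encoded and ribosomal protein genes, other count minimums, thinning to the smaller total, and leaving out genes with overlapped 3′ ends (chosen after seeing the data) kept both counts within 1.5 times. Genes at 1 CPM or more numbered 13845 in both pools, and 15530 to 15675 in either pool alone. The 30 genes most abundant by the mean share of both pools took 20.1% of the counts as a mean, 20.09 to 20.14% in either pool, and 13.2% when mitochondrially encoded genes were left out. Of 32 list medians, 7 changed sign with library totals alone, 3 each with DESeq2 size factors and upper-quartile factors, 2 with at least 50 counts, 4 with no filter beyond 1 count, and 0 with TMM without mitochondrial and ribosomal protein genes. The list of stromal, endothelial, and epithelial genes moved from -1.16 to 0.19 without the filter, with 3 genes compared under the filter. Depth limits what can be said below 0.946 CPM in pool 1 and 0.980 CPM in pool 2.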
